A study of Mus musculus with 24 samples.

Results

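Microglia, the resident macrophages of the brain, were followed in mouse hippocampus through 9 genes: Siglech, Fcrls, P2ry12, Tmem119, Cx3cr1, Csf1r, Sall1, Aif1 and Trem2. They were taken by name from the 47069 gene IDs counted in each library, and Siglech and Fcrls were set against the other 7. All 9 passed the filter on low counts in every fit. The study asked how loss of Kdm5c, an X-linked demethylase of H3K4 linked to intellectual disability, changes the hippocampal transcriptome. It used male mice 2 to 4 months old, in 6 groups of 3 libraries, and each library pooled the hippocampi of 3 mice.

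In the first line, wild-type mice (WT) and constitutive Kdm5c -/- mutants (KO) of a mixed C57/129 background were taken untreated or after 1 h of exploring an unfamiliar box with tubing and toys. In the second line, kept on C57BL/6J, untreated inducible forebrain mutants (ifKO) were compared with control mice. The ifKO carry floxed Kdm5c and a CreERT2 recombinase driven by the CaMKIIα promoter, which is active in excitatory neurons of the forebrain and not in microglia. The labels do not say whether the controls carry the floxed allele or the recombinase, nor when recombination was induced. The lines differ in background, flowcell and read length, so levels are compared within a line, and these differences cannot be told apart from the line. A constitutive mutation is carried by every cell, microglia included. The tissue is labelled as hippocampus throughout, although the extraction text of the labels speaks of cultures.

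Microglia keep a resting state with a characteristic set of surface receptors. Siglech encodes a sialic-acid-binding lectin that signals through the adaptor Tyrobp and is also found on plasmacytoid dendritic cells of the blood. Fcrls encodes a scavenger-like relative of the Fc receptors and serves as a marker that separates microglia from blood monocytes. P2ry12 is the ADP receptor that steers their processes, Cx3cr1 the receptor for the neuronal chemokine fractalkine, Csf1r the receptor on which their survival depends, and Trem2 a lipid-sensing receptor that also signals through Tyrobp. Tmem119 is a membrane protein used as a marker, Aif1 encodes the calcium-binding protein IBA1 used to stain them, and Sall1 is a transcription factor that maintains their identity.

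Siglech and Fcrls carry the difference described below, so the sequence around the start of each is shown. The windows run from 250 bases before to 50 bases after the RefSeq start (GRCm38.p6), 5′ to 3′ on the strand of the gene, and capitals mark the E-box letters CACGTG. The Siglech window is chr7:55767934-55768233 on the plus strand and the Fcrls window is chr3:87263475-87263774 on the minus strand. In GENCODE M21 the Fcrls gene reaches 87263738, so most of its window lies inside the gene as annotated there. The Cx3cr1 window lies wholly inside its gene there, so a missing motif refers to the RefSeq start only.
Siglech: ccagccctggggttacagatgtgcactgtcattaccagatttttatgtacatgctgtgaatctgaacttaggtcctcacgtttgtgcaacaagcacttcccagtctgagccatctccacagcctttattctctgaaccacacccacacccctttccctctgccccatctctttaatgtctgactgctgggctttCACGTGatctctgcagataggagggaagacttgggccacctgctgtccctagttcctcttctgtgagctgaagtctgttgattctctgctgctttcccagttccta
Fcrls: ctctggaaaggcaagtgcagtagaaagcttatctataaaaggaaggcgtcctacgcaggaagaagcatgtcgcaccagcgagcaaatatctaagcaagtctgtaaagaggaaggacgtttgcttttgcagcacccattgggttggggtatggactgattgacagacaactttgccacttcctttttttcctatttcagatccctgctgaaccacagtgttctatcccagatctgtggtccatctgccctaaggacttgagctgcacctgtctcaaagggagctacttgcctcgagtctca
The Siglech window held 1 E-box and 2 CpG, and the Fcrls window held no searched motif and 6 CpG, against a median of 7 CpG over 32851 mouse promoter windows of the same length. Searches on both strands covered GAGGAAGT (the factor PU.1, in 3.20% of all windows), a pair of GAAA with any 2 bases between them (interferon regulatory factors, 3.44%), TGANTCA (AP-1, 7.81%) and CACGTG (7.15%), which do not overlap one another as patterns. Of the 9 genes, 7 had a window. Among the other 5, P2ry12 held 1 E-box, Aif1 held 1 interferon regulatory factor match, Trem2 held 1 AP-1 match, and Cx3cr1 and Sall1 held none. Siglech and Fcrls shared none of the searched letters, and their windows lie on different chromosomes.

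Library sizes ran from 16024152 to 45600483 counts in genes in the KO line and from 36302406 to 43964906 in the inducible line. Per library the counts behind a value ran from 53 to 204 for Aif1, the lowest of the 9, from 299 to 1337 for Siglech, from 228 to 875 for Fcrls and from 1664 to 5951 for Csf1r. Kdm5c itself was read at 63.4 to 99.1 CPM (counts per 1000000 counts in genes) in all libraries. Since a deletion can spare most exons of a gene, this level does not check the genotypes, and groups are named by their labels. WT novelty library 1 and KO novelty library 2 lay farthest from the other libraries of their groups. Their median absolute differences were 0.187 and 0.154 on the log2 scale over 14553 genes, against 0.059 to 0.147 in the other 16. WT novelty library 2, at 0.147, was close to KO novelty library 2, so setting only the first 2 apart is a choice. Values without them are given for some of the comparisons that rest on them, mostly where a call changed. KO untreated library 2 and control library 1 held more choroid plexus RNA, with summed levels of 8 markers of 1032 and 798 CPM against 143 to 249 CPM in the other 16. Nothing says that the pools share no litter or day, so p-values measure the spread between pools.

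All 9 genes were expressed in every library. Per kilobase of exon, the mean over 18 libraries was 19.8 CPM for Csf1r, 14.99 for P2ry12, 11.4 for Cx3cr1, 8.57 for Tmem119, 7.42 for Fcrls, 6.35 for Siglech, 4.72 for Sall1, 2.80 for Aif1 and 2.31 for Trem2. Between neighbours in this order the ranges over libraries overlapped, except that Sall1 lay above Aif1 in 18 of 18 libraries with no overlap. P2ry12 also lay above Cx3cr1 in all 18 libraries, whereas Fcrls lay above Siglech in 14 of 18. Between the lowest and the highest library Siglech differed most, 2.22-fold, and Sall1 least, 1.24-fold. In GENCODE M21 neither Siglech (chromosome 7, 55768178 to 55778925, plus strand) nor Fcrls (chromosome 3, 87250758 to 87263738, minus strand) overlaps another gene. P2ry12, Cx3cr1 and Csf1r each overlap a gene on the opposite strand, Med12l, Wdr48 and Hmgxb3 among them, and Cx3cr1 also overlaps genes on its own strand, so their counts depend on the strand setting, which no label gives.

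**Figure D1:**
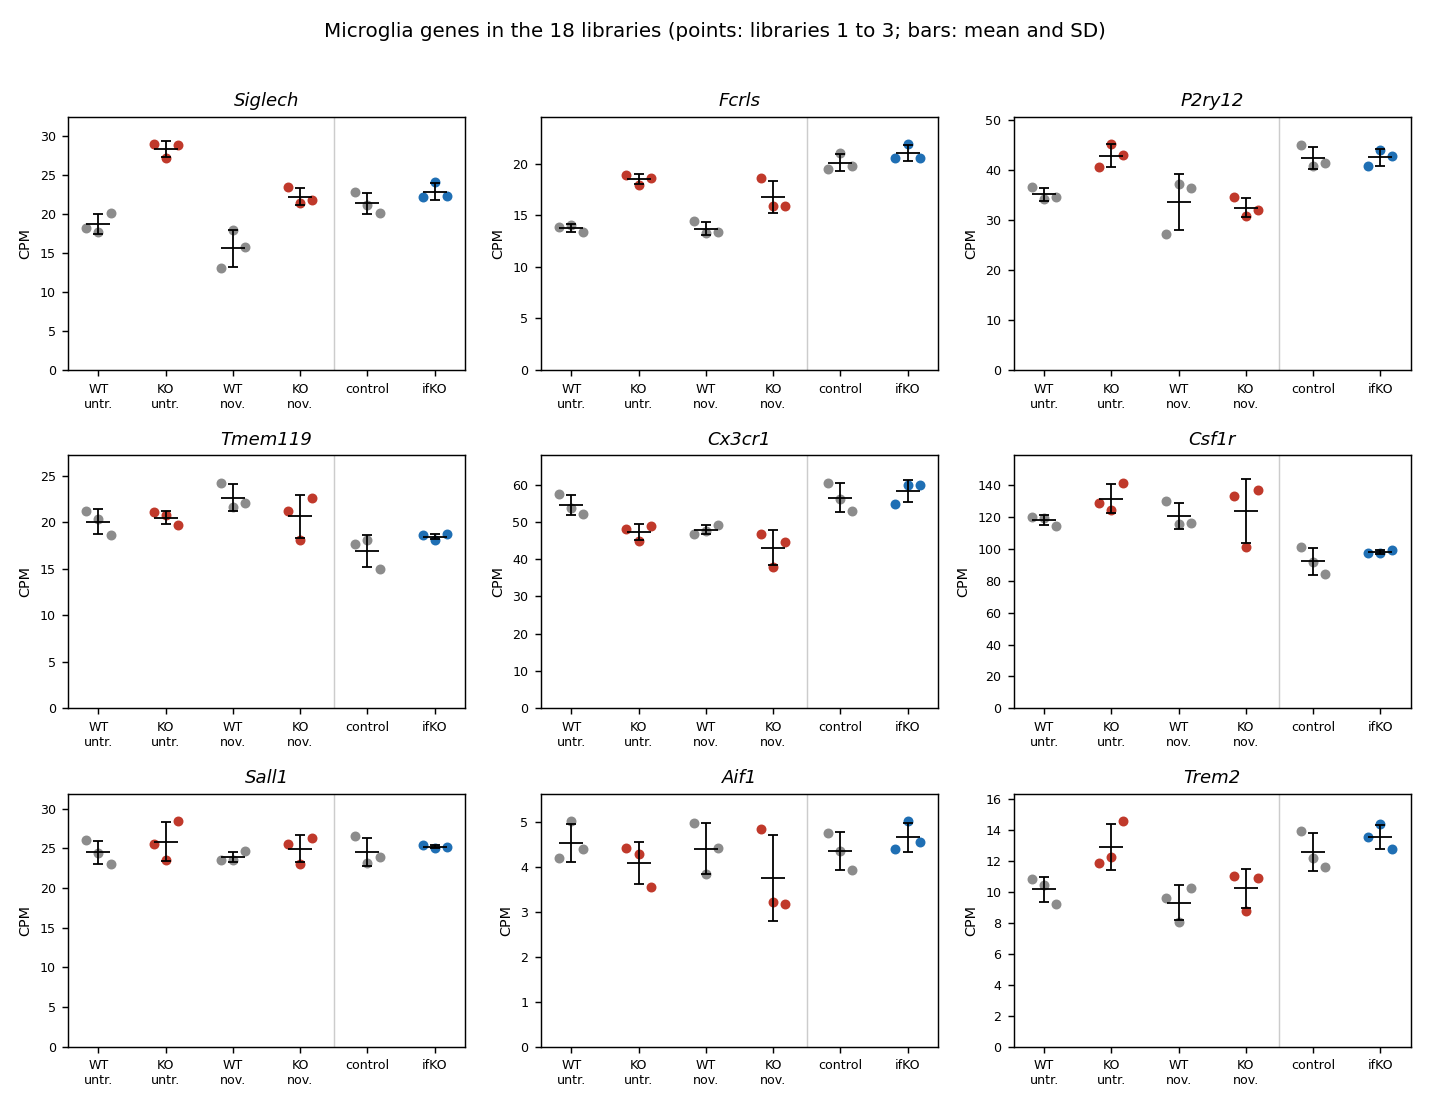
Level of each of the 9 genes in CPM (vertical axes, starting at 0) in the 6 groups (horizontal axes; untr., untreated; nov., after novelty). Points are libraries 1 to 3, and bars give the mean and SD. The KO points of Siglech and Fcrls lie above the WT points in both treatments, and control and ifKO points overlap.

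In untreated mice Siglech and Fcrls were higher in KO than in WT hippocampus, and none of the other 7 genes passed the test. Siglech was at 18.2, 17.7 and 20.2 CPM in WT and at 28.9, 27.1 and 28.9 CPM in KO. Every KO library lay above every WT library, with a gap wider than the spread within either group. Siglech rose by 0.60 ± 0.10 on the log2 scale (95% interval 0.38 to 0.81), a 1.51-fold change (edgeR quasi-likelihood test, adjusted p = 0.00737). Fcrls was at 13.9, 14.1 and 13.4 CPM in WT and at 18.9, 17.95 and 18.6 CPM in KO, again with no overlap. It rose by 0.43 ± 0.08 (interval 0.25 to 0.60), or 1.34-fold (edgeR, adjusted p = 0.0182). In whole tissue, fewer cells of a type and less RNA per cell cannot be told apart, and the same holds for more cells and more RNA. So 2 of 9 genes were called, both higher, where 1.24% of the 16392 genes tested were called in either direction. DESeq2 also called 2, with 257 of the 28595 genes with any count called (0.899%). This share has a wider base than that of edgeR, which called 204 genes. The Siglech call ended when WT library 1, WT library 2 or KO library 1 was left out, and that of Fcrls when any 1 of 5 libraries other than KO library 2 was left out. Over these fits the changes stayed between 0.55 and 0.66 for Siglech and between 0.41 and 0.45 for Fcrls, and the highest adjusted p-values were 0.0641 and 0.101. Without KO library 2, the one rich in choroid plexus RNA, they were 0.62 ± 0.11 (adjusted p = 0.0198, edgeR) and 0.45 ± 0.09 (adjusted p = 0.0491, edgeR).

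The other 7 genes differed in direction among themselves in the same comparison, from -0.20 to 0.35 with a median of 0.08, beside 0.00 over all genes tested. P2ry12 was at 36.6, 34.2 and 34.6 CPM in WT and at 40.5, 45.1 and 43.0 CPM in KO. The groups did not overlap, but the difference of 0.29 ± 0.10 did not pass over all genes (edgeR, adjusted p = 0.383). It passed when only the 6 untreated libraries were fitted (adjusted p = 0.0387, edgeR, with 1.98% of all genes called) and when the 2 novelty libraries that stand apart were left out (adjusted p = 0.02, edgeR, with 2.51% called). Trem2 was at 10.8, 10.4 and 9.21 CPM in WT and at 11.8, 12.2 and 14.6 CPM in KO, a difference of 0.35 ± 0.13 that did not pass (edgeR, adjusted p = 0.383). Cx3cr1 lay on the other side, at 57.4, 53.7 and 52.2 CPM in WT and at 48.1, 44.8 and 49.0 CPM in KO, a difference of -0.20 ± 0.08 (edgeR, adjusted p = 0.448). Its KO libraries were all below its WT libraries, so the fractalkine receptor and the ADP receptor differed in opposite directions, neither past the threshold. Csf1r differed by 0.16 ± 0.10, Sall1 by 0.08 ± 0.08, Tmem119 by 0.03 ± 0.09 and Aif1 by -0.16 ± 0.17. For Tmem119 the 95% interval ran from -0.16 to 0.23, below the fitted change of either called gene. In all, the KO and WT libraries of 6 of 9 genes did not overlap, where this held for 21.0% of all genes tested in either direction.

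After 1 h of novelty the comparison of KO with WT rests on 6 other libraries. Siglech was at 13.04, 17.9 and 15.8 CPM in WT and at 23.4, 21.4 and 21.8 CPM in KO. The KO libraries again all lay above the WT libraries, and the WT spread was wider than in untreated mice. Siglech rose by 0.51 ± 0.10 (interval 0.29 to 0.74), or 1.43-fold (edgeR, adjusted p = 0.0242). Fcrls was at 14.4, 13.3 and 13.3 CPM in WT and at 18.6, 15.9 and 15.9 CPM in KO. Its groups did not overlap either, and its difference of 0.30 ± 0.08 did not pass (edgeR, adjusted p = 0.129). So 1 of 9 genes was called, with 1.34% of all genes tested called. DESeq2 also called 1, with 292 of the 28595 genes with any count called (1.02%), where edgeR called 219 genes. Without WT novelty library 1 and KO novelty library 2 both genes passed, Siglech at 0.42 ± 0.09 (adjusted p = 0.0238, edgeR) and Fcrls at 0.38 ± 0.09 (adjusted p = 0.0404, edgeR). That fit called 4.26% of all genes tested. The Siglech call ended without WT library 3, KO library 1 or KO library 3, with adjusted p-values of 0.0118 to 0.154 over the 6 fits, and when only the 6 novelty libraries were fitted (0.51 ± 0.13, adjusted p = 0.199, edgeR).

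None of the other 7 genes passed after novelty, with differences from -0.22 to 0.15. P2ry12 was at 27.1, 37.2 and 36.4 CPM in WT and at 34.5, 30.8 and 31.9 CPM in KO, so the 2 groups overlapped and its difference was -0.05 ± 0.10. Trem2 differed by 0.15 ± 0.13 and Cx3cr1 by -0.15 ± 0.08, the latter with all KO libraries, at 46.9, 37.8 and 44.6 CPM, below the WT libraries at 46.9, 47.6 and 49.3 CPM by a margin that vanishes on rounding. Siglech, Fcrls and Cx3cr1 were the 3 of 9 genes without overlap, where 11.3% of all genes tested showed none.

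Averaged over both treatments, which joins all 12 libraries of the line, Siglech was higher in KO by 0.55 ± 0.07 (interval 0.40 to 0.71; edgeR, adjusted p = 0.000415) and Fcrls by 0.36 ± 0.06 (interval 0.24 to 0.49; edgeR, adjusted p = 0.00242). Both calls held in 12 of 12 fits that left out 1 library, with changes of 0.50 to 0.61 and of 0.32 to 0.38. That made 2 of 9 called, with 2.81% of all genes tested called. DESeq2 also called 2, with 546 of the 28595 genes with any count called (1.91%), where edgeR called 461 genes. Of the other 7, the nearest were Cx3cr1 at -0.17 ± 0.06 (edgeR, adjusted p = 0.154) and Trem2 at 0.25 ± 0.09 (edgeR, adjusted p = 0.234). Csf1r, at 0.10 ± 0.07, passed only without the 2 novelty libraries that stand apart (0.19 ± 0.04, adjusted p = 0.0171, edgeR), where 4.25% of all genes were called. With the labels permuted within treatments, the mean differences in log2 CPM of 0.56 for Siglech and 0.36 for Fcrls each gave p = 0.005 in a two-sided exact permutation test, the smallest that 400 arrangements allow. Any gene whose KO libraries all lie on 1 side of WT in both treatments, as those of Cx3cr1 do, reaches this value. The test was run on these 2 genes alone, without adjustment, so it adds nothing to the separation already given. These values use the same libraries as the 2 comparisons before and are not separate evidence.

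**Figure D2:**
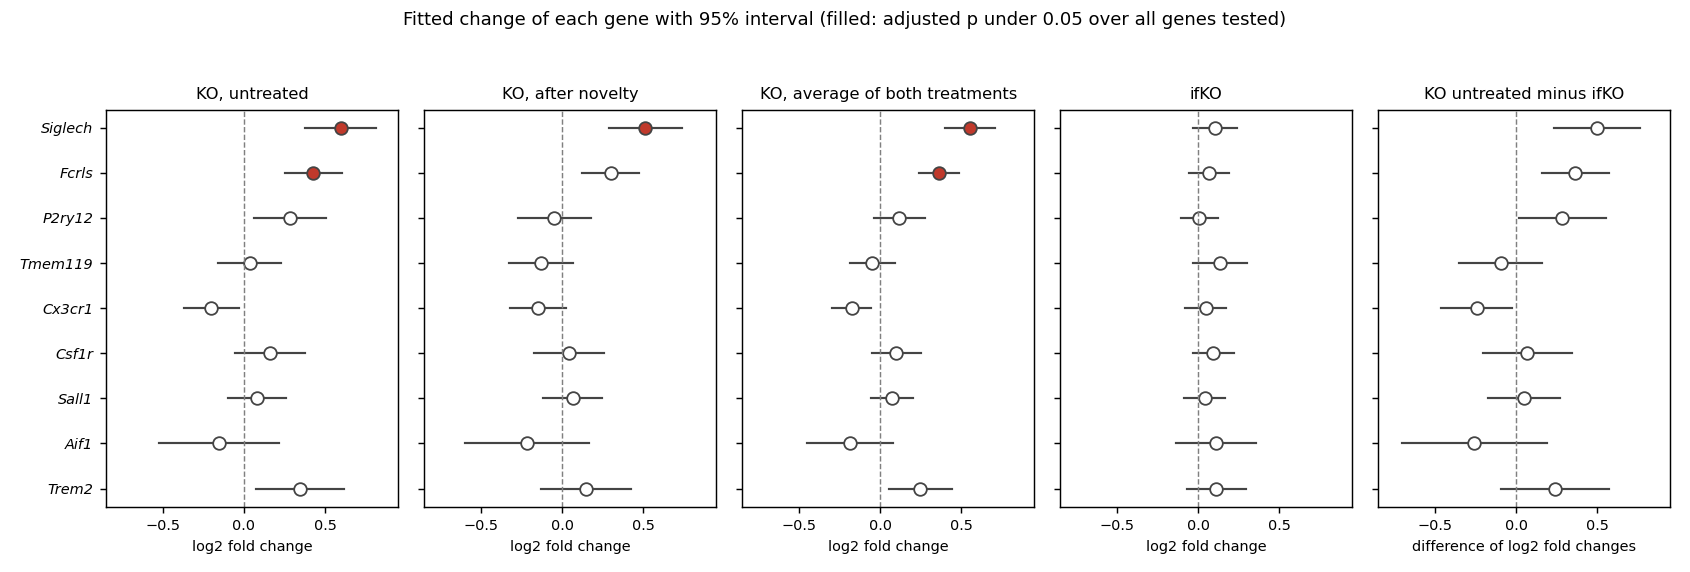
Fitted log2 fold change (horizontal axes; in the last panel a difference of log2 fold changes) of the 9 genes in 5 comparisons, with 95% intervals. Filled points passed the threshold over all genes tested: both Siglech and Fcrls in untreated KO and in the average, Siglech alone after novelty, and none in ifKO or in the difference between the mutants.

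Siglech and Fcrls were also higher in KO relative to the mean level of the other 7 microglia genes, a mean over genes that differed in both directions. The geometric mean of the other 7 was 24.4 ± 1.03 CPM in untreated WT, 25.7 ± 0.543 in untreated KO, 23.7 ± 0.819 in WT after novelty and 22.9 ± 2.49 in KO after novelty. In untreated mice its KO libraries, at 25.2 to 26.3 CPM, all lay above its WT libraries, at 23.2 to 25.1 CPM, while after novelty the groups overlapped. As a log2 ratio to that mean, Siglech was at -0.38 ± 0.16 in untreated WT and 0.14 ± 0.04 in untreated KO, and at -0.62 ± 0.26 and -0.04 ± 0.11 after novelty. Fcrls was at -0.82 ± 0.03 and -0.47 ± 0.04 untreated, and at -0.79 ± 0.07 and -0.45 ± 0.11 after novelty. The KO libraries lay above the WT libraries in all 4 pairs of groups, by 0.52 and 0.57 for Siglech and by 0.35 and 0.34 for Fcrls. For the 7 genes themselves, each against the other 6, Trem2 was also higher in every KO library than in every WT library in both treatments (by 0.31 and 0.22), and Cx3cr1 lower (by -0.33 and -0.12). These ratios are scores over genes chosen with earlier results of these data known, and they carry no test. In a fit with the mean log2 CPM of the other 7 as a covariate, Siglech was at 0.60 ± 0.11 untreated (adjusted p = 0.0119, edgeR), at 0.51 ± 0.11 after novelty (adjusted p = 0.0296, edgeR) and at 0.56 ± 0.07 averaged (adjusted p = 0.000489, edgeR). Fcrls was at 0.38 ± 0.08 untreated (adjusted p = 0.0316, edgeR), at 0.32 ± 0.08 after novelty (adjusted p = 0.0697, edgeR) and at 0.35 ± 0.05 averaged (adjusted p = 0.00188, edgeR). Since this mean differs little between genotypes, the fit could move the effects little, and it does not separate them from the level of any single gene among the 7. The ratios and the fit use the same chosen genes and the same libraries as the comparisons before. They are therefore not separate evidence that Siglech and Fcrls stand apart from the other 7.

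**Figure D3:**
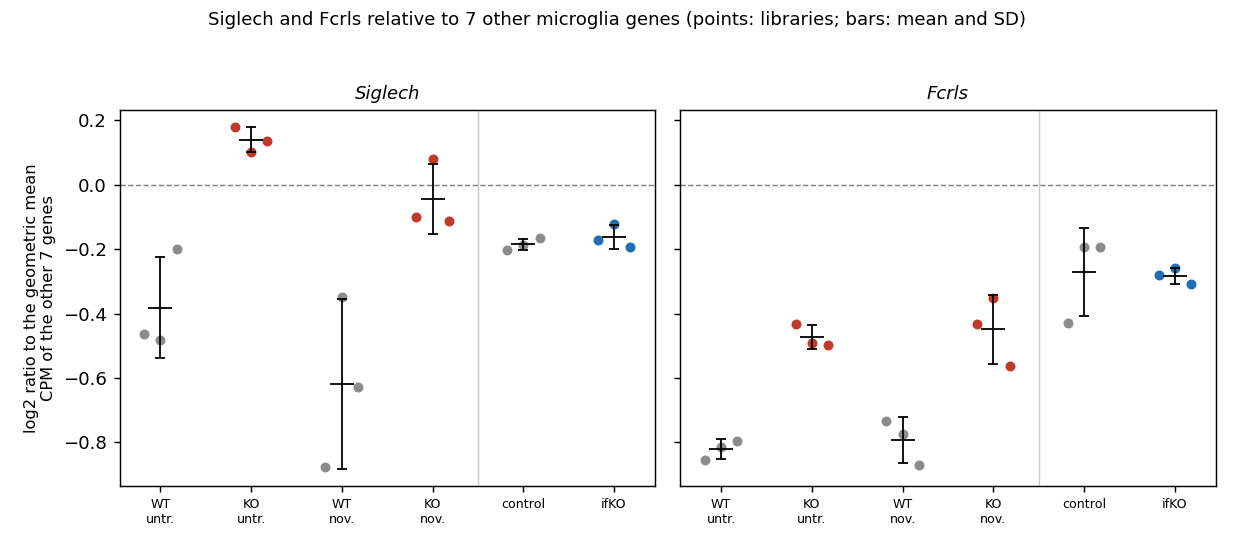
Log2 ratio of Siglech (left) and Fcrls (right) to the geometric mean CPM of the other 7 genes (vertical axis) in the 6 groups; points are libraries, bars the mean and SD. In both panels the KO points lie above the WT points in each treatment, while control and ifKO have means of -0.19 and -0.16 for Siglech and of -0.27 and -0.28 for Fcrls.

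One hour of novelty changed none of the 9 genes past the threshold, in either genotype. In WT, 0 of 9 were called by edgeR and by DESeq2, where 0.384% of all genes tested were called by edgeR. By edgeR 2 of the 9 had an unadjusted p under 0.05, as did 1797 of the 16392 genes tested. Those 2 were Siglech, at -0.27 ± 0.10 from untreated to novelty with overlapping groups, and Cx3cr1, at -0.18 ± 0.08 with all novelty libraries lower. Tmem119 and Cx3cr1 were the 2 genes whose groups did not overlap, against 15.9% of all genes tested, and Tmem119 was higher after novelty by 0.18 ± 0.09. Without WT novelty library 1, which held the lowest Siglech and P2ry12 levels of all 18, and KO novelty library 2, the Siglech difference in WT was -0.15 ± 0.09. In KO, 0 of 9 were called by edgeR and by DESeq2, where 0.110% of all genes tested were called by edgeR. By edgeR 3 of the 9 had an unadjusted p under 0.05, as did 1100 of the 16392 genes tested. These 3 receptors, P2ry12 at -0.40 ± 0.10 (edgeR, adjusted p = 0.305), Siglech at -0.35 ± 0.10 (edgeR, adjusted p = 0.385) and Trem2 at -0.33 ± 0.13 (edgeR, adjusted p = 0.636), were lower in every KO novelty library than in every untreated KO library. Groups without overlap made up 15.0% of all genes tested there. Fcrls differed by -0.01 ± 0.08 in WT and by -0.14 ± 0.08 in KO. The untreated KO libraries enter both this comparison and that of KO with WT, so a high value there moves both. P2ry12 passed in KO without the 2 libraries that stand apart (-0.36 ± 0.07, adjusted p = 0.0349, edgeR), where 0.381% of all genes were called.

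The genotype effect before and after novelty was compared directly by the interaction. No member was called by edgeR or DESeq2, and 0% of all genes tested were called. By edgeR 1 member had an unadjusted p under 0.05, as did 563 of the 16392 genes tested. The interaction was -0.08 ± 0.15 for Siglech (interval -0.40 to 0.23) and -0.13 ± 0.12 for Fcrls (interval -0.38 to 0.12), so a different genotype effect after novelty was not detected for either. P2ry12 gave the member with p under 0.05, at -0.33 ± 0.15 (unadjusted p = 0.0412, adjusted p = 1, edgeR). Its KO mean was above WT in untreated mice and just below it after novelty, and without the 2 libraries that stand apart the interaction passed (-0.43 ± 0.09, adjusted p = 0.0392, edgeR). That fit called the interaction in 331 of 16556 genes, 302 of them with a negative value as in P2ry12, so such a call was not particular to this gene.

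In ifKO mice, whose recombinase is driven in excitatory neurons of the forebrain, none of the 9 genes passed the test. Siglech was at 22.8, 21.1 and 20.1 CPM in control and at 22.2, 24.1 and 22.3 CPM in ifKO, which overlap. Its difference was 0.10 ± 0.06 (interval -0.03 to 0.24; edgeR, adjusted p = 0.845). Fcrls was at 19.5, 21.05 and 19.8 CPM in control and at 20.6, 21.9 and 20.6 CPM in ifKO, also overlapping, a difference of 0.07 ± 0.06 (interval -0.06 to 0.19; edgeR, adjusted p = 0.901). For both genes the upper bound lies below the fitted change in untreated KO. The differences of all 9 were positive and small, from 0.01 to 0.14, with a median of 0.09 beside 0.00 over all genes tested. By edgeR and DESeq2 0 of 9 were called, where 0.645% of all genes tested were called by edgeR. By edgeR 0 of the 9 had an unadjusted p under 0.05, as against 1154 of the 17367 genes tested. Without control library 1, which was rich in choroid plexus RNA, 3 had an unadjusted p under 0.05 and none was called. Not all of the following genes had such a p. Siglech was then at 0.15 ± 0.07, Trem2 at 0.19 ± 0.08, Csf1r at 0.16 ± 0.05 and Sall1 at 0.10 ± 0.06. The lowest adjusted p was 0.274 (edgeR), for Csf1r. Fcrls stayed between 0.04 and 0.10 over the 6 fits that left out 1 library. Tmem119 was the single gene without overlap, where 11.9% of all genes tested showed none. A two-sided exact permutation test gave p = 0.3 for Siglech and for Fcrls, where 3 libraries against 3 cannot go below 0.1. In ratio to the other 7, Siglech was at -0.19 ± 0.02 in control and -0.16 ± 0.04 in ifKO, and Fcrls at -0.27 ± 0.14 and -0.28 ± 0.02.

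The difference between the 2 mutants, untreated KO against WT minus ifKO against control, did not pass over all genes. It was 0.50 ± 0.13 for Siglech (interval 0.23 to 0.76, unadjusted p = 0.001, adjusted p = 0.292, edgeR) and 0.36 ± 0.10 for Fcrls (interval 0.16 to 0.57, unadjusted p = 0.00161, adjusted p = 0.393, edgeR). By edgeR and DESeq2 0 of 9 were called, where 0.114% of all genes tested were called by edgeR. By edgeR 4 of the 9 had an unadjusted p under 0.05, as did 701 of the 17508 genes tested. The other 2 were P2ry12 at 0.28 ± 0.13 and Cx3cr1 at -0.24 ± 0.10. Without the 2 novelty libraries that stand apart, which here only add to the estimate of the spread, the Siglech difference passed (0.49 ± 0.10, adjusted p = 0.0394, edgeR) and that of Fcrls did not (adjusted p = 0.169, edgeR), with 0.19% of all genes called. The smaller change in ifKO is therefore not established as a difference between the mutants for Fcrls, and rests on the choice of libraries for Siglech.

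The partners of these receptors were followed through 18 genes for the ligands of Csf1r and Cx3cr1, the adaptors of Trem2 and Siglech, and TGF-beta signalling, which maintains the microglial state. None of the 16 tested was called in any of the 8 comparisons, where at most 2.81% of all genes tested were called. Csf1 and Il34, the ligands of Csf1r, were at 29.5 ± 1.80 and 45.0 ± 2.30 CPM in untreated WT and at 31.9 ± 1.58 and 49.6 ± 0.965 CPM in untreated KO. Cx3cl1, the fractalkine made by neurons, was at 518 ± 11.3 and 513 ± 19.4 CPM. Tyrobp, the adaptor through which both Siglech and Trem2 signal, differed in the opposite direction from Siglech, at 11.6 ± 1.09 CPM in untreated WT and 9.63 ± 0.712 CPM in untreated KO. Its differences were -0.27 ± 0.10 untreated (edgeR, adjusted p = 0.42), -0.27 ± 0.10 after novelty (edgeR, adjusted p = 0.381) and -0.27 ± 0.07 averaged (edgeR, adjusted p = 0.0758). In ifKO Tyrobp differed by 0.10 ± 0.07. Il34 did not overlap in untreated KO, nor in ifKO, where it was higher by 0.16 ± 0.04 (edgeR, adjusted p = 0.25). Groups without overlap made up 21.0% and 11.9% of all genes tested there. Il34 overlapped after novelty, and Csf1 overlapped in all of these comparisons. Of the 16 partner genes tested, 15 were positive in ifKO and 9 in the averaged KO effect. None of 14 transcription factors of the microglial lineage was called in any comparison, with a median of 0.05 in the averaged KO effect.

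Among 38 further genes of resting microglia, all tested, 4 were called in the averaged effect, 1 in untreated KO and 0 in KO after novelty, each of them higher. Over all genes tested, 2.81%, 1.24% and 1.34% were called in these comparisons. The median of the 38 averaged effects was 0.05, beside 0.00 over all genes tested, and 23 of the 38 were positive. In ifKO 1 of the 38 was called, where 0.645% of all genes tested were called. There 28 of the 38 were positive, with a median of 0.07. The one called in untreated KO was Cyth4, which encodes a guanine nucleotide exchange factor for ARF proteins. It was at 17.1, 20.9 and 17.7 CPM in untreated WT and at 26.8, 23.3 and 25.8 CPM in untreated KO, a rise of 0.45 ± 0.10 (edgeR, adjusted p = 0.0481). Cyth4 was also called in ifKO, where Siglech and Fcrls, at 0.10 and 0.07, were not. Its change there was not tested against theirs. It was at 17.8, 19.4 and 17.7 CPM in control and at 22.3, 24.7 and 25.3 CPM in ifKO, with no overlap and a change of 0.40 ± 0.07 (edgeR, adjusted p = 0.0157). The effects in the 2 mutants differed by 0.05 (edgeR, adjusted p = 1). Only 1 of 6 fits without a library kept the call in untreated KO and 2 of 6 that in ifKO, whereas 12 of 12 kept the averaged call of 0.38 ± 0.07.

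The other 3 called in the average were Olfml3, a secreted glycoprotein, at 0.37 ± 0.08 (edgeR, adjusted p = 0.0155), Slc2a5, a fructose transporter, at 0.65 ± 0.15 (edgeR, adjusted p = 0.0329), and Cd68, a lysosomal membrane protein, at 0.42 ± 0.10 (edgeR, adjusted p = 0.0319). Olfml3 was at 15.2 ± 0.812 CPM in untreated WT and 19.7 ± 2.00 CPM in untreated KO, and Slc2a5 at 2.64 ± 0.764 and 4.26 ± 0.0412 CPM. Their averaged calls held in 9, 3 and 3 of 12 fits without a library. Of 26 genes of activated microglia 17 were tested, with 0 called in untreated KO, 0 after novelty, and 2 in the average, where the median was 0.01 and 2.81% of all genes tested were called. These were Ctsz, a lysosomal protease, at 0.30 ± 0.06 (edgeR, adjusted p = 0.0234) and Cd83, a surface protein of activated immune cells, at 0.33 ± 0.07 (edgeR, adjusted p = 0.0244), held in 6 and 7 of 12 fits. In ifKO none of Olfml3, Slc2a5, Cd68, Ctsz and Cd83 was called. Olfml3, Cd68 and Cd83 were higher in every ifKO than in every control library, while Slc2a5 and Ctsz overlapped. Groups without overlap made up 11.9% of all genes tested there.

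**Figure D4:**
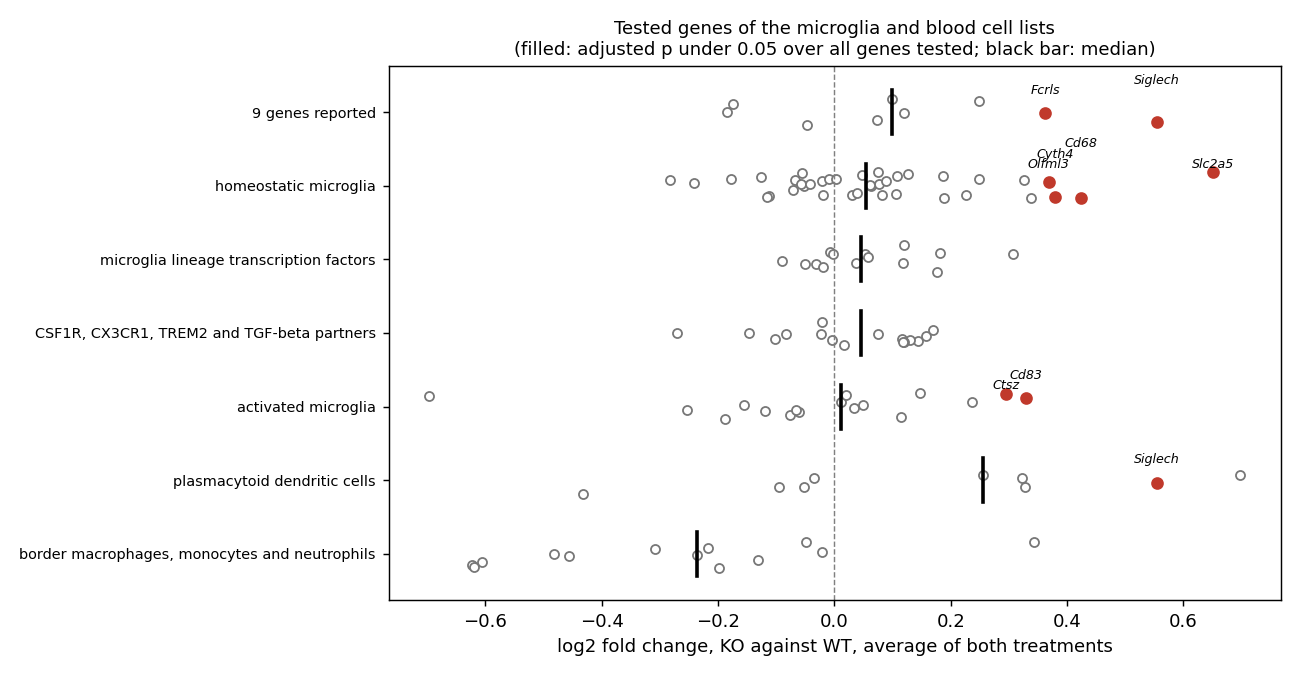
Log2 fold change of KO against WT averaged over both treatments (horizontal axis) for every tested gene of 7 lists (rows; vertical scatter within a row has no meaning). Filled points passed the threshold over all genes tested, as 2.81% of those genes did, and are named. Black bars are list medians. Siglech and Fcrls are the 2 called genes of the 9, 4 of 38 resting and 2 of 17 activated microglia genes were called, and the lineage factors, the partners and the border macrophage list had none; Siglech appears again in the plasmacytoid dendritic cell list.

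Siglech also marks plasmacytoid dendritic cells, and of the 14 other genes listed for them 6 had a median under 1 CPM. Over all 18 libraries together Klk1 had 2 counts, Ly6d 3, Spib 23 and Ccr9 95. Cox6a2, which muscle and some neurons also express, had a median of 1.91 CPM, and it was not called in any comparison (0.70 in the average, adjusted p = 0.0833, edgeR). Of the 15 genes of this list 9 were tested in the KO line, and Siglech was the one called in untreated KO, after novelty and in the average. Over all genes tested, 1.24%, 1.34% and 2.81% were called there. Siglech is on the list by choice, so its own call adds nothing here. The median difference of the 9 was 0.31 in untreated KO, 0.08 after novelty and 0.26 in the average. The summed level of the list, Siglech included, was 51.3 to 53.4 CPM in untreated WT and 61.5 to 65.3 CPM in untreated KO. Without Siglech it was 33.2 to 35.1 and 34.2 to 36.3 CPM, which overlap. The transcription factor Runx2, which other cells also express, had the highest median of these 14 genes, at 16.7 CPM, followed by Lag3 at 4.57 and Tlr7 at 4.29 CPM. Of 22 genes of border macrophages, monocytes and neutrophils, 13 were tested in the KO line and 0 called in any comparison by edgeR. Over all genes tested at most 2.81% were called in any comparison. The median of the 13 genes was -0.45 in untreated KO and -0.24 in the average. Their summed level was 45.6 to 59.0 CPM in untreated WT and 34.6 to 44.3 CPM in untreated KO, opposite in direction to Siglech and Fcrls. After novelty the median was -0.02, and the sums overlapped, at 38.7 to 58.5 CPM in WT and 39.7 to 54.1 CPM in KO.

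No other tested gene of either family was called in KO. Over all genes tested, 1.24% were called in untreated KO, 1.34% after novelty and 2.81% in the average. At such shares, the lack of further calls in these small families, or among the neighbours below, says little. Of 9 Siglec genes 6 were tested in the KO line, and Siglech was the one called in untreated KO, after novelty and in the average. Cd33, a Siglec of microglia and myeloid cells, was at 10.4 ± 1.05 CPM in untreated WT and 9.27 ± 0.348 CPM in untreated KO. Of 13 Fc receptor and Fc receptor-like genes 6 were tested, and Fcrls was the one called, in untreated KO and in the average. Its chromosomal relatives Fcrl5 and Cd5l had 13 and 4 counts over all 18 libraries, and Fcrl1 at most 0.585 CPM. None of the 10 tested genes within 500 kb of Siglech and none of the 8 within 500 kb of Fcrls was called in KO in either treatment, with adjusted p-values of at least 0.4 (edgeR). The nearest tested genes were Tubgcp5, 15229 bases from Siglech, at -0.04 ± 0.13 in untreated KO, and Kirrel, 76011 bases from Fcrls, at -0.24 ± 0.13.

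In the averaged KO effect, 1 of 8 astrocyte markers and 1 of 8 oligodendrocyte lineage markers were called. Neither list had a call in untreated KO or after novelty. The shares over all genes tested were 2.81%, 1.24% and 1.34%. Of 10 neuron, 8 endothelial and mural and 7 choroid plexus markers tested, 0 were called in any of them. Summed, the 10 neuron markers were at 11188.5 to 11521 CPM in untreated WT and 11688 to 12194 CPM in untreated KO. After novelty the neuron sums overlapped. The summed level of 8 astrocyte markers was 5390 to 5885 CPM in untreated WT and 6272 to 6517 CPM in untreated KO, and 5207 to 5956 and 6037 to 6247 CPM after novelty. Gfap, the intermediate filament of astrocytes, rose by 0.27 ± 0.05 in the average (edgeR, adjusted p = 0.0115). The summed level of 8 oligodendrocyte lineage markers was 3382 to 3668 CPM in untreated WT and 2609 to 2945 CPM in untreated KO, and after novelty 2898 to 3273 and 2648 to 2992 CPM, which overlap. Mbp, a myelin protein, fell by 0.26 in the average (SE 0.06; edgeR, adjusted p = 0.0369), a call that held in 3 of 12 fits without a library, against 11 of 12 for Gfap. The part of these shifts in the change of Siglech and Fcrls was not tested. The summed level of 38 resting microglia genes was 808 to 840 CPM in untreated WT and 824 to 882 CPM in untreated KO, which overlap.

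Over the 12 libraries of the KO line, the profiles of Siglech and Fcrls were most like those of other genes that are higher in KO. By Pearson r of log2(CPM + 0.01) among 14365 genes, the 5 nearest to Siglech were AW822252 (r = 0.94), Slc26a10, Pyroxd2, P2rx7, an ATP-gated channel (r = 0.93), and Gucy2e, and all 5 were called higher in the averaged KO effect, by 0.36 to 0.92. The 5 nearest to Fcrls were Igfbp4 (r = 0.96), Cercam, Col22a1, Adamtsl2 and Capn3, called higher by 0.42 to 1.78. The 5 nearest to the mean of the other 7 were Zfp414 (r = 0.92), Thpo, Ikzf4, Tgds and Leng8, with averaged KO effects between -0.04 and 0.03, none called. These r values are a description over 12 libraries that share the 4 groups. None of the 15 genes is on the microglia lists used here. Those lists do not hold every gene that microglia express, P2rx7 included, so absence from them does not place a gene outside microglia. Since Siglech and Fcrls are themselves higher in KO over these libraries, genes like them in profile tend to be higher too. The likeness is therefore not separate evidence.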

How the data were processed

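RNA of 18 hippocampal pools was sequenced as stranded libraries (KO line, 50 nt, single end; inducible line, 75 nt, paired end), per the labels. The authors deposited 1 file of read counts per gene and library, with 47069 Ensembl gene IDs in each. The submitters' processing notes name STAR 2.5.0c, SAMtools 1.3, HTSeq 0.6.1, DESeq2 and GRCm38. No label states the strand setting of the counting. Rows for reads outside genes or shared between genes were kept out of library sizes (no feature 14.7% to 17.2% and ambiguous 0.765% to 1.06% of these rows and the gene counts together).

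IDs were matched to symbols and exon lengths of GENCODE M21 (46574 matched). The counts were tested with edgeR 4.0.16 (R 4.3.3) by the quasi-likelihood test, with TMM normalization, filterByExpr (minimum count 10, total 15) and Benjamini-Hochberg adjustment over all genes tested, threshold 0.05, and the scripts were tested on simulated data. The KO line (12 libraries) and the inducible line (6) were fitted separately, and the difference of their effects over all 18. ± is the standard error for a log2 fold change and the SD (n = 3) for a group mean. CPM are counts per 1000000 counts in genes, with TMM factors over 18 libraries. Alternatives were DESeq2 1.42.0, other scalings and filters, a replicate block, offsets for GC content and length, a test against a fold of 1.2 and fewer libraries.

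The 9 genes and the marker lists were chosen with earlier results of these data known. All 9 genes are named. From each other list up to 4 genes past the threshold per direction and comparison are named, with 5 plasmacytoid dendritic cell genes, Tyrobp, neighbours within 500 kb, and the 5 genes of at least 1 CPM most like each profile. Other genes named as ligands or relatives were chosen after their values were seen.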

Additional observations from a re-analysis of the deposited data

How the results depend on the processing

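Over 1213 alternative values for the 9 genes, 1189 kept their side of the threshold, 16 fell below it, 8 rose past it and 0 called values changed sign, while 48 of 1115 values not called in either setting had the other sign. The number of the 9 genes called moved as follows. Tested against a fold of 1.2, it was 1 in the average, 0 in untreated KO and 0 in KO after novelty, with 1.3%, 0.744% and 0.769% of all genes called. Without a filter on low counts it was 1 for novelty in KO, with 0.353% of all genes called. Without WT novelty library 1 and KO novelty library 2 it was 3 in untreated KO, 2 after novelty, 3 in the average, 1 for novelty in KO, 1 for the interaction and 1 for the difference between the mutants. The shares of all genes called there were 2.51%, 4.26%, 4.25%, 0.381%, 2% and 0.19%. With only the compared groups in the fit it was 3 in untreated KO and 0 in KO after novelty, with 1.98% and 0.656% of all genes called. Leaving out 1 library at a time it ran from 0 to 2 in untreated KO and from 0 to 1 in KO after novelty. Of all genes, 0.727% to 0.896% and 0.866% to 1.7% were called in those fits. The cause of these moves was not tested, beyond the fewer libraries in such fits. Replicate numbers do not pair the libraries (correlations of same-numbered deviations -0.19 to 0.30, never all 3 over 0.1). With a replicate block the counts were 2, 1 and 2 in untreated KO, after novelty and averaged, and 0 in the other comparisons. The first 3 fits called 1.06%, 1.23% and 2.54% of all genes. The differences between groups in the log2 ratios moved by less than the spread between libraries under the alternatives run, although the ratios themselves are far lower against the summed CPM of the 7 (-3.92 in place of -0.46 for Siglech in untreated WT library 1). The exact permutation p of Siglech and of Fcrls was 0.005 under the 2 other scalings run. DESeq2 gave 2, 1 and 2, and 0 elsewhere. It called 0.899%, 1.02% and 1.91% of the 28595 genes with any count, a wider base than the filtered genes of edgeR. Among the 9 genes Aif1 and Trem2 had the widest standard errors of the log2 fold change in untreated KO, 0.17 and 0.13, which hold both counting error and the spread between pools.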
